A study of Homo sapiens with 24 samples.

Results

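The zinc finger (ZNF) genes of chromosome 19 were examined in HCT-116 cells, a human colorectal carcinoma line, that expressed either wild-type (WT) PHF5A or its Y36C mutant. Members were the protein-coding genes of chromosome 19 named ZNF and a number in the GENCODE annotation of GRCh37, with 3 readthrough genes left out. There were 246 such genes. Every row of the splicing files that lay on the strand and within the span of 1 of them was taken, which gave 9775 of 1823643 rows, in 173 of the genes. Of these rows, 3231 were exon-intron boundaries and 6544 were rows of spliced junctions. A junction can have a row at its 5′ splice site and another at its 3′ splice site, so it can count more than once below. The rows held 3459 distinct junctions.

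The study asked how the PHF5A mutation alters splicing when SF3b is inhibited. Poly A-selected RNA was sequenced from 4 groups of 6 samples, 24 in all: WT PHF5A with DMSO, WT PHF5A with E7107, Y36C PHF5A with DMSO and Y36C PHF5A with E7107. In all 4 groups the PHF5A cDNA had been introduced by lentivirus into parental HCT-116 cells, which were then selected with blasticidin, so the endogenous gene was also present. DMSO is the solvent control, and E7107 is a pladienolide derivative that inhibits SF3b. The labels give no dose. They number the samples of a group, and the study describes treatment in 6 replicates. Neither says that these came from independent cultures, so the p-values measure the spread between these samples, which may be technical.

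PHF5A and SF3B1 form the pocket of SF3b that holds the branch point adenosine of an intron, and E7107 binds there. Many of the ZNF genes of chromosome 19 encode KRAB zinc finger proteins, repressors that bind DNA, often in transposable elements, through an array of C2H2 fingers. Their KRAB domain recruits TRIM28, which brings in SETDB1, HP1 and other silencing factors. The genes arose by repeated duplication and lie in clusters. They share a layout in which short exons, some of them encoding KRAB, precede 1 large last exon that encodes the fingers. In the annotation used here, the main transcript had a median of 4 exons, a median last exon of 3301 bases and internal exons that were most often 127 bases long. Such an exon was present in 194 of the 246 genes. Near-identical paralogs may share reads, and how reads that match several genes were counted is not stated, so values of single genes carry that uncertainty.

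Below are the last 40 bases of 7 introns, the stretch that normally holds the branch point and the polypyrimidine tract. They are among the coding-region introns with the largest and the smallest change in retention between DMSO and E7107 in WT cells, 1 per gene, among those read at both ends in all 24 samples, and are therefore shown as a description. Capitals mark the AG that ends the intron. All were read from GRCh37. The 3 with a large change come first, followed by the 4 with the smallest.
ZNF587 intron 2, chr19:58369904-58369943, plus strand: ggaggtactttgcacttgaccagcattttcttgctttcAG
ZNF77 intron 2, chr19:2936703-2936742, minus strand: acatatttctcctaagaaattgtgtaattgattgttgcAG
ZNF473 intron 4, chr19:50547887-50547926, plus strand: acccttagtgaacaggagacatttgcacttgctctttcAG
ZNF444 intron 3, chr19:56669823-56669862, plus strand: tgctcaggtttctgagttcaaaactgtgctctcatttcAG
ZNF544 intron 6, chr19:58772177-58772216, plus strand: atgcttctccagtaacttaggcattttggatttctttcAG
ZNF738 intron 3, chr19:21558631-21558670, plus strand: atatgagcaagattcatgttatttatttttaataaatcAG
ZNF480 intron 2, chr19:52817366-52817405, plus strand: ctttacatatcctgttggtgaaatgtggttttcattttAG
All 7 end in AG, and the pyrimidines among the last 20 bases number from 10 in ZNF77 to 14 in ZNF587 and ZNF473.

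In ZNF587 intron 2, retention was 0% in all 6 WT DMSO samples and ran from 77.5% to 97.1% in the 6 WT E7107 samples. In ZNF473 intron 4 it rose from between 1.92% and 8.33% to between 84.1% and 95.8%. ZNF473 takes part in the 3′ end processing of histone mRNAs. At the other end, ZNF444 intron 3 had 8.11% ± 4.80 (SD, n = 6) with DMSO and 2.75% ± 4.30 with E7107, and the samples of both groups overlapped. ZNF480 intron 2 had 1.45% ± 1.43 and 4.21% ± 3.85.

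Retention is given here as the percent spliced in (PSI) of a boundary: of the reads at a splice site, the percentage that ran from the exon into the intron. The files hold no counts, so the depth behind a single PSI is unknown and no counting interval can be given. What could be seen of depth was how many splice sites had any read. Of the 3480 splice sites of the ZNF genes, the median number with reads went from 1667.5 with DMSO to 1058.5 with E7107 in WT, and from 1666.5 to 1654 in Y36C. The WT E7107 samples, at 1047 to 1082, lay below all others, which lay between 1610 and 1690. As shares, the medians were 47.9% and 30.4% in WT and 47.9% and 47.5% in Y36C, beside 53.1% and 44.5%, and 52.9% and 52.0%, of all sites in the files. ZNF genes on other chromosomes had a similar fall in WT, from 54.5% to 37.1%, and stood at 53.9% and 53.4% in Y36C. For other protein-coding genes of chromosome 19 the shares were 54.8% and 47.9% in WT and 54.8% and 53.9% in Y36C. In 149 ZNF genes a site was read in all 6 WT DMSO samples, and in 46 of these no site was read in all 6 WT E7107 samples. The reverse was so in 1 gene. In Y36C, 148 genes had a site read in all 6 DMSO samples and 150 in all 6 E7107 samples. Other genes were not counted in this way, so nothing particular to ZNF genes is read from these counts. In these bulk samples, less RNA per cell, fewer cells and fewer reads cannot be told apart. The results below rest on sites read in all 24 samples, which were 471 boundaries in 101 genes and 1730 spliced junction rows. As a check of the line, splice sites of the epithelial genes EPCAM, CDH1, KRT8, KRT18 and KRT19 were read in all 24 samples, those of CDX1, VIL1 and LGALS4 were not, and of the genes of other cell types only COL1A1 was read, at 85 of its 101 sites.

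Over the 471 boundaries, mean retention per sample was 6.82% ± 0.86 (SD, n = 6) in WT DMSO and 36.8% ± 0.96 in WT E7107. In Y36C cells it was 6.37% ± 0.21 with DMSO and 7.59% ± 0.42 with E7107. The 6 WT E7107 samples lay between 35.3% and 38.1%, and no other sample was above 8.29%. Samples of Y36C E7107 lay between 7.14% and 8.29% and overlapped those of WT DMSO, at 5.92% to 8.24%, but not those of Y36C DMSO, at 5.98% to 6.57%. Boundaries at 5′ and at 3′ splice sites had similar levels in WT E7107, 36.4% ± 1.9 over 237 and 37.2% ± 0.30 over 234. The 1347 boundaries of ZNF genes on other chromosomes stood at 7.07%, 36.2%, 6.86% and 9.11% for DMSO and E7107 in WT and then in Y36C. In the same order, for the 11546 boundaries of other protein-coding genes of chromosome 19 the means were 7.25%, 18.7%, 7.10% and 10.2%, and for all 202775 boundaries of the files 5.99%, 17.9%, 5.83% and 7.90%. No test was run on these means, since the gene set was chosen with earlier results known.

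**Figure D1:**
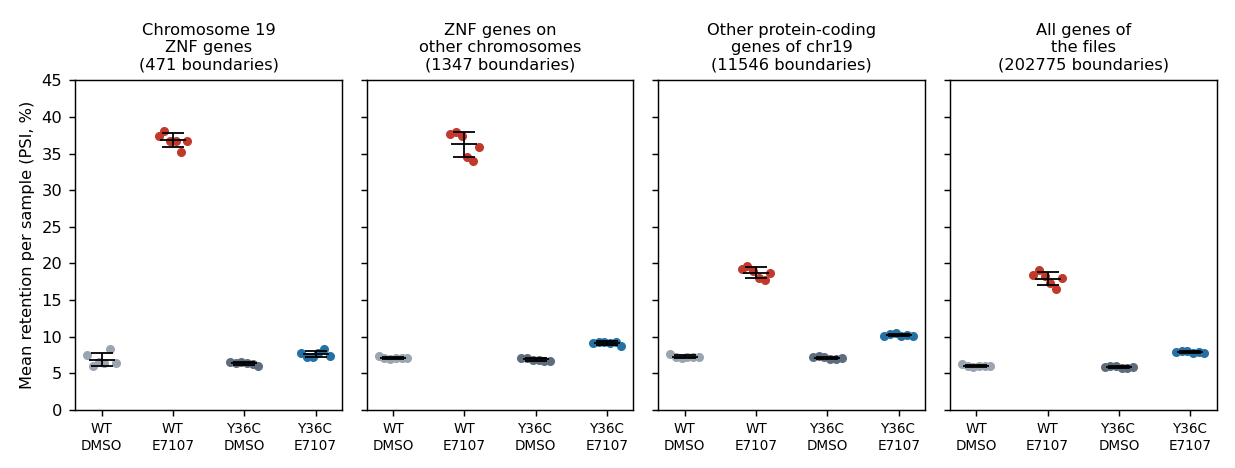
Mean retention per sample (PSI, %) over the boundaries read in all 24 samples, for 4 sets of genes, with 1 point per sample and the mean and SD of 6 samples per group. The WT E7107 samples of both ZNF sets lie at 34.0% or above and those of the other sets at 19.7% or below, while the Y36C E7107 samples of every set lie at 10.4% or below.

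In WT cells E7107 raised retention at 292 of the 469 boundaries of ZNF genes that could be tested and lowered it at 3 (limma on the log odds of PSI, adjusted p of 0.05 or less over all rows of the genome). The increases fell in 87 genes. Across all boundaries of the files, 43.5% rose and 3.64% fell. The median change of the ZNF boundaries was 27.1 percentage points, beside 4.82 over all boundaries and 23.9 over ZNF genes elsewhere. At ZNF genes on other chromosomes 803 of 1323 boundaries rose and 10 fell.

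The 6 boundaries with the highest moderated t in WT were in ZNF816, ZNF136, ZNF614, ZNF77, ZNF791 and ZNF180. All 6 were at 0% in every WT DMSO sample, so that group gave no spread, which also lowers the p-values. The 3′ boundary of ZNF77 intron 2 (chr19:2936703-2939278, minus strand, coding region) went from 0% in all 6 DMSO samples to 75% at the lowest, 84.7% at the median and 91.7% at the highest with E7107. The change was 6.26 ± 0.21 in ln odds (SE, adjusted p = 7.2e-10). At the 5′ boundary of ZNF136 intron 3 (chr19:12296990-12297384, plus strand, coding region), the 6 E7107 samples lay at 41.7% to 60% with a median of 54.2%, again from 0% in all 6 DMSO samples. The change in ln odds was 4.75 ± 0.12 (SE, adjusted p = 1.45e-10). ZNF791 and ZNF180 changed by 15.5 and 18.1 points, and ZNF816 and ZNF614 by 30.5 and 44.9.

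Of the 3 boundaries that fell in WT, 2 were at annotated splice sites. The third, a 3′ splice site of ZNF544 at position 58785731 that is not annotated, went from 17.2% to 44.4% (median 27.8%) down to 0% to 5.56% (median 0%, adjusted p = 8.6e-05). At the 3′ boundary of ZNF444 intron 2 (chr19:56657790-56658258, plus strand, in the 5′ UTR), WT DMSO samples ran from 0% to 5.00% with a median of 2.57%, and all 6 WT E7107 samples were at 0% (adjusted p = 0.0301). ZNF444 is a SCAN-domain zinc finger protein. The 5′ boundary of ZNF738 intron 4 stood at 30.8% to 81.8% with DMSO, median 64.4%, and at 14.3% to 50% with E7107, median 36.7%, so that the groups overlapped (adjusted p = 0.0429). The ZNF444 and ZNF738 calls were lost when PSI itself was the response and with the replicate number as a block.

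Introns of the main transcripts were then taken whole. There were 177 introns, in 79 genes, with both ends read in all 24 samples, and the retention of an intron is the mean of its 2 boundaries. The median intron went from 2.47% with DMSO to 33.5% with E7107 in WT, and from 2.61% to 2.87% in Y36C. The change under E7107 was above 0 in 175 introns in WT and in 103 in Y36C. It ran from −5.36 to 86.5 points in WT and from −10.3 to 25.4 points in Y36C. All 6 WT E7107 samples lay above all 6 WT DMSO samples in 114 introns, and the same was so in 2 introns in Y36C. At single boundaries, where the share over all genes could be had, it was so at 202 of 471 ZNF boundaries in WT (42.9%) and at 3 in Y36C (0.637%), beside 31.6% and 5.94% of all boundaries of the files. In WT, at least 1 end was called higher in 140 introns and both ends in 101. The WT E7107 mean exceeded 50% in 44 introns, and no intron reached this in WT DMSO or in Y36C E7107. Introns of other genes were not counted in these ways, so nothing particular to ZNF genes is read from these counts. Of single boundaries of all genes, 43.5% were called higher in WT, and an intron has 2 ends that can be called. The changes at the 2 ends of an intron in WT ran together (Spearman's rho 0.738, Pearson's r 0.757 across 177 introns, which share samples and, within a gene, RNA). The WT and Y36C changes ran together less closely (rho 0.241, r 0.214).

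**Figure D2:**
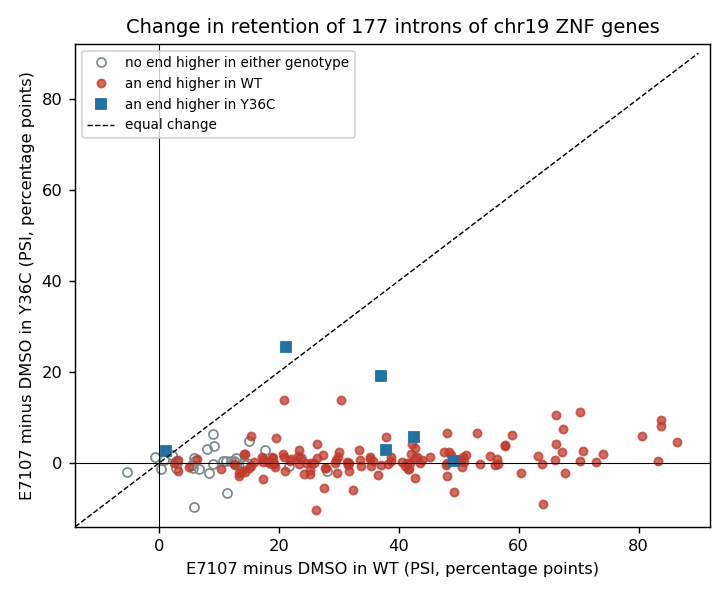
Change in retention between DMSO and E7107 (percentage points of PSI) in WT cells (horizontal axis) and in Y36C cells (vertical axis) for 177 introns, each the mean of 6 samples per group and of both ends of the intron. Most introns lie near 0 vertically and spread to 86.5 points horizontally, and 6 introns, drawn as squares, have an end that rose in Y36C.

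Genes with 3 or more such introns, 32 in number, were compared by their mean over the introns read. Among them the change in WT had a median of 30.9 points and ran from −0.57 in ZNF444 to 56.6 in ZNF473. ZNF473, with all 4 introns read, had WT DMSO samples at 1.44% to 10.9% (median 4.22%) and WT E7107 samples at 58.2% to 66.9% (median 59.9%). ZNF548 was already at 9.70% to 21.1% with DMSO and reached 68.3% to 78.2%. ZNF317, with 6 introns read, went from 3.95% to 6.64% up to 51.7% to 58.6%. In each of these 3 genes the WT groups were far apart. In 26 of the 32 genes they did not overlap, in some by a narrow margin. No such share was computed for other genes, so nothing particular to ZNF genes is read from this count. The 6 genes in which the WT groups overlapped were ZNF444, ZNF480, ZNF738, ZNF226, ZNF675 and ZNF333.

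ZNF480 had all 4 introns read and moved only from 1.73% ± 1.16 (SD, n = 6) to 6.10% ± 2.53. ZNF544, with all 6 introns read, went from 5.45% ± 0.79 to 14.5% ± 2.3, without overlap. In ZNF324, which lies in the same cluster of genes at the end of the q arm, both introns read were at 82.6% or more in every WT E7107 sample and at 15.3% or less in every WT DMSO sample.

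**Figure D3:**
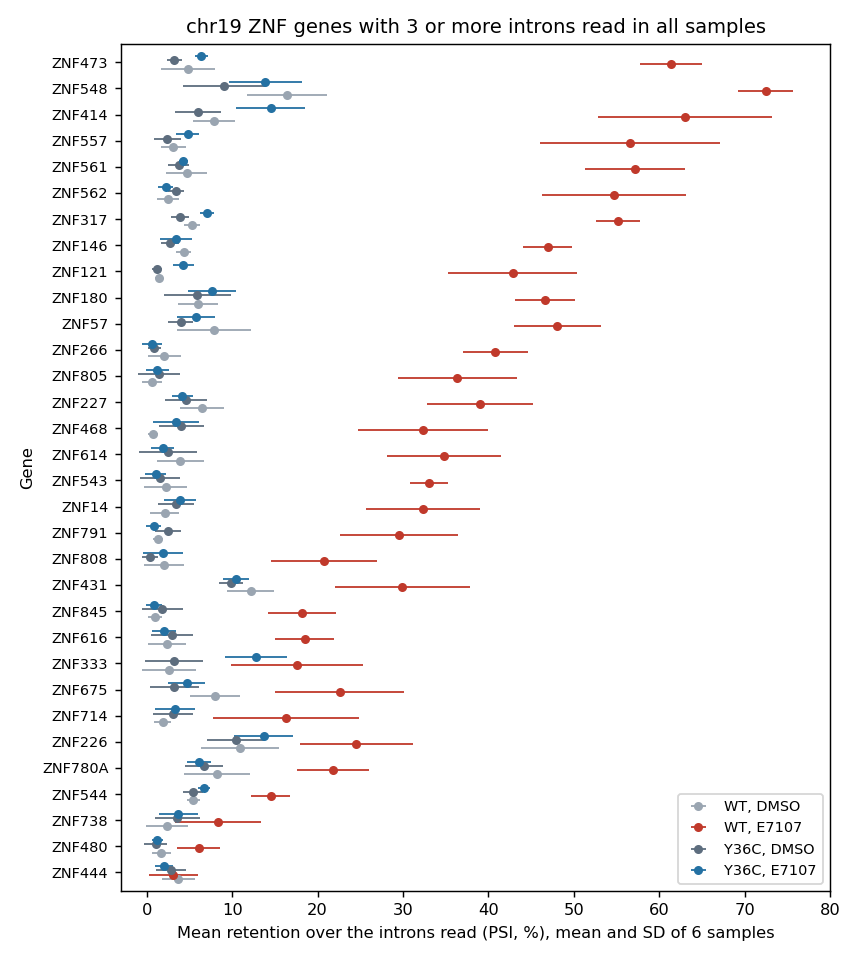
Mean retention (PSI, %) of the 32 ZNF genes with 3 or more introns read in all 24 samples, in order of the change in WT, as mean and SD of 6 samples for each of the 4 groups. WT E7107 runs from 3.13% in ZNF444 to 72.4% in ZNF548, while the means of the other 3 groups reach 16.4% at most, in ZNF548 with WT DMSO.

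Retention in WT cells differed with the length and base composition of the intron. These classes were formed after values had been seen and are a description. Under E7107 the median retention was 44.6% in the 8 introns of up to 300 bases, 38% in the 39 introns above that and up to 1000 bases, 39.9% in the 52 above 1000 and up to 3000, 27.8% in the 51 above 3000 and up to 10000 and 18.0% in the 27 longer ones. The middle part of the changes overlapped between the classes, with an upper quartile of 46 points in the longest introns and of 60.9 in the shortest. By GC content the median retention was 28.5% in the 24 introns of up to 38% GC, 27.8%, 31.3% and 37.7% in the next 3 classes, and 50.5% in the 32 introns above 50% GC. The rank correlation of the WT change was −0.226 with length and 0.206 with GC content, across 177 introns that share samples. For the much smaller Y36C change the values were similar, −0.219 with length and 0.174 with GC content. Length and GC content were themselves hardly related (rho −0.0834). In Y36C E7107 no class had a median above 4.33%.

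**Figure D4:**
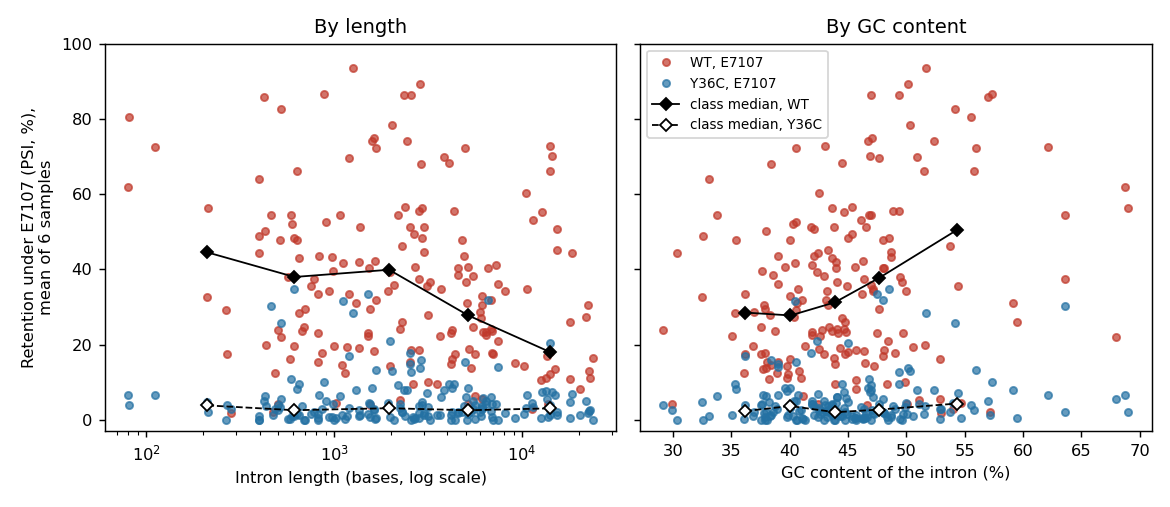
Retention under E7107 (PSI, %, mean of 6 samples) of 177 introns against their length (log axis) and their GC content, in WT and in Y36C cells, with medians of 5 classes placed at the median of each class. The WT medians go from 44.6% to 18.0% with length and from 28.5% to 50.5% with GC content, and the points scatter widely around them.

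By position on the chromosome, the median change in WT was largest in the 7 introns of genes before 8 Mb, at 53.0 points, and in the 35 introns between 8 and 14 Mb, at 42.6 points. It was smallest in the 22 introns between 14 and 25 Mb, at 14.7 points, where 8 introns had an end called higher, beside 32 of 35 in the neighbouring interval and 140 of all 177 introns. The intervals differ in other respects: the introns between 8 and 14 Mb had a median length of 909 bases and 44.3% GC, those between 14 and 25 Mb 2131 bases and 40.7% GC. Their parts in the difference were not tested. First, middle and last introns had similar medians, with changes of 30.5 points in 34 first introns, 28.1 in 81 middle ones and 26.3 in the 57 last introns, which precede the finger exon.

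For 10 ZNF genes chosen by known role, the intron before the finger exon was looked up whatever its values. It was read at both ends in all 24 samples in ZNF304, ZNF146 and ZNF224, and at its 3′ end in ZNF274. ZNF146, a protein made almost wholly of fingers, had 28.0% to 42.1% retention (median 36%) at the 3′ end of its intron 3 (chr19:36719722-36726560, plus strand, 5′ UTR) in WT E7107. In the other groups it stood at 1.17% to 5.62% (WT DMSO, median 2.82%), 0.43% to 3.41% (Y36C DMSO, median 2.35%) and 0.71% to 4.42% (Y36C E7107, median 2.77%). Only WT E7107 stood apart. The ln odds in WT rose by 2.63 ± 0.19 (SE, adjusted p = 2.59e-07), and in Y36C they changed by 0.16 ± 0.24 (adjusted p = 0.715).

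ZNF304, a repressor reported to silence tumour suppressor genes in colorectal cancer cells, had 53.3% to 64.5% (median 59.1%) at the 3′ end of intron 2 (chr19:57865220-57867397, plus strand, coding region) in WT E7107. The WT DMSO samples ran from 0% to 13% with a median of 3.12%. Y36C samples ran from 0% to 33.3% with DMSO (median 7.74%) and from 0% to 15.4% with E7107 (median 9.52%), and overlapped each other. The rise in WT was 3.79 ± 0.52 in ln odds (SE, adjusted p = 8.4e-05), and the interaction with genotype passed the test at this end (adjusted p = 0.00503) but not at the 5′ end (adjusted p = 0.263).

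ZNF224, a KRAB repressor, rose at the 5′ end of intron 5 in WT (chr19:44605379-44610548, plus strand, coding region; adjusted p = 0.000982), from 0% to 18.2% up to 33.3% to 57.1%. At its 3′ end the WT E7107 samples ran from 0% to 55.6%, overlapped the DMSO samples at 0% to 25%, and gave an adjusted p of 0.35. ZNF274, which recruits SETDB1 to the 3′ parts of ZNF genes, was at 0% at the 3′ end of intron 8 (chr19:58723053-58723526, plus strand, coding region) in all 18 samples of the other groups. In WT E7107 it ran from 0% to 66.7% with a median of 36.7% (adjusted p = 0.00154). ZNF91, known to repress SVA elements, had reads at the 3′ end of its last intron in 6 samples of each other group and in 1 of 6 WT E7107 samples. ZNF350 lacked reads in some WT DMSO samples, and the last introns of ZNF93, ZNF43, ZNF331 and ZNF568 have no row in the files used here.

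In Y36C cells E7107 raised retention at 8 of the 418 boundaries of ZNF genes that could be tested, in 6 genes, and lowered it at 1. Across all boundaries of the files, 10.1% rose and 0.348% fell, and at ZNF genes on other chromosomes 7.13% and 0.243%. The median change at ZNF boundaries was 0.80 points, beside 0.57 over all boundaries. The ZNF values were the more scattered ones, with a median SE of 0.53 in ln odds, beside 0.28 over all boundaries, so a change of a given size passed the test less readily. With reads required in the 12 samples compared and not in all 24, 30 of 908 ZNF boundaries rose, beside 19335 of 220818 over all boundaries. Of the 418 ZNF boundaries, 3 passed the test with a rise of at least 10 points. That count was not made over all boundaries.

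The 6 genes were ZNF544, ZNF414, ZNF121, ZNF561, ZNF317 and ZNF333. At the 5′ end of ZNF414 intron 6 (chr19:8575909-8576369, minus strand, coding region, 63.6% GC), Y36C DMSO samples lay at 4.17% to 33.3% (median 14.9%) and Y36C E7107 samples at 32.0% to 77.3% (median 56%). These groups overlapped at their edges. In WT the values were 19.2% to 59.1% (median 27.1%) and 33.3% to 88.9% (median 60.3%). The rise was 2.03 ± 0.42 in ln odds in Y36C (SE, adjusted p = 0.00786) and 1.31 ± 0.43 in WT (adjusted p = 0.0391). The interaction did not pass the test (0.72 ± 0.62, adjusted p = 0.536).

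At the 3′ end of ZNF333 intron 2 (chr19:14804307-14805821, plus strand, coding region), Y36C samples went from 0% to 41.7% (median 7.14%) to 40% to 70.0% (median 55.0%). In WT the E7107 samples lay between 0% and 50%, with a median of 31.0%, and overlapped the WT DMSO samples at 0% to 25% (adjusted p = 0.134). The rise in Y36C was 3.07 ± 0.76 in ln odds (SE, adjusted p = 0.0227) and in WT 2.22 ± 1.01. The interaction did not pass the test (0.84 ± 1.31, adjusted p = 0.671), so no difference between the genotypes is read from this boundary. At the 5′ end of ZNF561 intron 2 (chr19:9728856-9730107, minus strand, coding region), Y36C went from 0% to 7.69% up to 9.26% to 25.4% (adjusted p = 0.0124). The WT E7107 samples there lay at 37.5% to 92.6%, above all others.

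The other 3 genes moved by fewer points. The 5′ end of ZNF544 intron 5 went from a median of 0% to 3.77% in Y36C (adjusted p = 0.000364) and from 0% to 1.35% in WT (adjusted p = 0.247), and the interaction gave an adjusted p of 0.186. ZNF121 held 3 of the 8 calls. At intron 2 (chr19:9678852-9679677, minus strand) its Y36C medians went from 1.61% to 10.1% at the 3′ end and from 0% to 3.61% at the 5′ end (adjusted p = 0.0176 and 0.0213). ZNF121 intron 3 and ZNF317 intron 1 reached medians of 3.32% and 1.72% at their 5′ ends in Y36C E7107, beside 52.8% and 59.7% in WT E7107. The boundary that fell in Y36C was the 3′ end of ZNF430 intron 4 (chr19:21216991-21239436, plus strand, coding region), from 0% to 28.6% (median 14.7%) to 0% in all 6 samples (adjusted p = 0.00722), which gave no spread in that group. The Y36C calls for ZNF561 and ZNF333 were lost with an offset of 0.1 points, and that for ZNF317 with PSI itself as the response and with the replicate number as a block.

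Without drug, no tested boundary was called different between the genotypes (limma, 0 of 420 higher and 0 lower). The median SE was 0.53 in ln odds at ZNF boundaries and 0.28 over all boundaries, so differences of a given size passed less readily. The means differed by 10 points or more at 5.95% of the ZNF boundaries and at 1.76% of all. Of all boundaries of the files, 0.0324% were higher and 0.0244% lower in Y36C. At an unadjusted p under 0.05 there were 28 ZNF boundaries, and the count of calls was 0 under every alternative run. The rows of spliced junctions likewise gave 0 of 1359 (76 at an unadjusted p under 0.05, with 0.0263% of all rows higher and 0.0245% lower). Among them the 394 rows of skipping junctions gave 0 (25 at an unadjusted p under 0.05, with 0.0375% of all higher and 0.0127% lower).

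Under E7107, retention was lower in Y36C than in WT at 294 of 468 ZNF boundaries, in 85 genes, and higher at 2, both in ZNF544. Over all boundaries of the files, 40.2% were lower and 7.11% higher. The median difference was −25.4 points at ZNF genes and −3.88 over all boundaries. These differences share the WT E7107 samples with the comparison in WT. At the 5′ boundary of ZNF581 intron 1 (chr19:56155141-56155918, plus strand, 5′ UTR, 63.6% GC) all 6 Y36C samples were at 0% and the 6 WT samples at 11.8% to 15.5%, with a median of 13.9% (adjusted p = 3.18e-10). The Y36C group gave no spread there, which also lowers the p-value. As the mean of both ends, this intron stood higher, at 35.4% to 39.7% in WT E7107 and 0.5% to 3.33% in Y36C E7107. The 2 boundaries that were higher in Y36C included the 3′ splice site at position 58788548 of ZNF544, where Y36C samples lay at 0% to 50% (median 25.4%) and WT samples at 0% to 25% (median 0%), so that they overlapped (adjusted p = 0.0343).

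Whether the E7107 effect itself differed between genotypes was tested by the interaction over all 24 samples. It was lower in Y36C at 241 of 471 ZNF boundaries, in 78 genes, and higher at 2. Of all boundaries of the files, 34.0% were lower and 4.69% higher. Among the rows with the lowest t were the ZNF136 and ZNF614 boundaries named above and the 5′ boundaries of ZNF460 intron 2 and ZNF805 intron 1. ZNF460 reached 21.7% to 39.4% and ZNF805 21.1% to 45% in WT E7107, and both were at 0% in all other samples. The ZNF738 boundary that fell in WT was the annotated boundary with the highest interaction, 1.88 ± 0.61 in ln odds (SE, adjusted p = 0.0272). Its Y36C samples lay at 20% to 59.1% (median 33.3%) with DMSO and 20% to 66.7% (median 61.3%) with E7107, and the difference between them did not pass the test (adjusted p = 0.464). The interaction call was lost with the replicate number as a block (adjusted p = 0.0562).

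Usage of spliced junctions moved in the other direction in WT, as all values of 1 site sum to 100. E7107 lowered 365 of 1438 tested rows of ZNF genes and raised 93. Over all spliced rows of the files, 19.2% fell and 4.08% rose. Of 502 rows for annotated junctions that leave out no exon, 277 fell and 4 rose, with a median change of −22.2 points. Over all such junctions of the files, 38.8% fell and 3.19% rose, with a median of −3.58 points. In Y36C cells 37 of 1422 rows fell and 43 rose, beside 6.2% and 3.57% of all spliced rows. Under E7107, 359 of 1452 rows were higher in Y36C than in WT and 67 lower, beside 19.3% and 5.73%, and the interaction was called at 313 of 1730 rows, 52 of them lower, beside 16.9% and 3.69%.

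Rows of the ZNF genes that join annotated splice sites across at least 1 annotated exon, called skipping junctions here, moved in both directions in WT. There, 82 of 494 rose and 62 fell, with 7.89% and 6.65% of all skipping junctions of the files. In Y36C, 30 of 443 rose and 4 fell, with 9.6% and 1.54% of all. The rises lay in 36 genes in WT and in 13 in Y36C. Most of the 62 falls in WT lay in rows that cross only exons of other transcripts. A fall there need not mean less skipping of an exon of the main transcript. Among rows over main-transcript exons in WT, 44 of 172 rose and 1 fell where an exon of 127 bases was left out. Over other main-transcript exons 34 of 174 rose and 8 fell.

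ZNF121 showed the gradation between genotypes. The junction that leaves out exon 3 (chr19:9678771-9678851, 81 bases, minus strand) took 0% to 4.20% of the reads at its 5′ splice site in WT DMSO (median 1.53%) and 34.5% to 57.1% in WT E7107 (median 45.9%). In Y36C it took 0% to 2.99% with DMSO (median 1.22%) and 8.40% to 15.5% with E7107 (median 11.1%). E7107 samples lay above DMSO samples in both genotypes, and those of WT above those of Y36C. The rise was 3.40 ± 0.27 in ln odds in WT (SE, adjusted p = 8.21e-07) and 1.81 ± 0.23 in Y36C (adjusted p = 0.000377). The interaction was −1.59 ± 0.36 (adjusted p = 0.00191), a call that was lost with an offset of 0.1 points.

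ZNF317 exon 5 (chr19:9268656-9268751, 96 bases, plus strand) was left out more with E7107 in both genotypes. Its skipping junction went from 12.7% to 37.3% (median 23.0%) to 44.1% to 66.7% (median 59.2%) in WT, and from 19.6% to 23.4% (median 21.3%) to 41.0% to 52.9% (median 49.2%) in Y36C. The rises were 1.49 ± 0.23 and 1.16 ± 0.11 in ln odds (SE, adjusted p = 0.000284 and 3.22e-05), and the interaction was −0.32 ± 0.25 (adjusted p = 0.479). Under E7107 Y36C differed from WT by −0.40 ± 0.16 in ln odds, which did not pass the test (adjusted p = 0.0821). Exon 2 of ZNF146 (chr19:36709024-36709097, 74 bases, plus strand) was already left out in 65.0% ± 2.6 (SD, n = 6) of WT DMSO reads at the 5′ splice site, and in 78.7% ± 4.8 with E7107. In Y36C the values were 65.0% ± 4.2 and 80.3% ± 3.0. Both rises passed the test (adjusted p = 0.00151 and 0.00113), and the interaction did not (adjusted p = 0.75).

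ZNF714 exon 4 and ZNF544 exon 6 were skipped in Y36C at low levels. The ZNF714 junction was at 0% in all 6 Y36C DMSO samples and at 3.57% to 9.52% (median 6.83%) in Y36C E7107 (adjusted p = 2.96e-06, with no spread in the DMSO group). In WT E7107, 5 samples were at 0% and 1 at 50%. The ZNF544 junction went from a median of 0% to 5.82% in Y36C (adjusted p = 0.000934), and in WT E7107 4 samples were at 0% and the highest at 50%. The WT E7107 means, 8.33% in ZNF714 and 12.9% in ZNF544, were above those of Y36C E7107, 6.65% and 7.07%, and rested on 1 and 2 samples. Neither interaction passed the test (adjusted p = 0.146 and 0.536).

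The skipping junctions with the highest moderated t in WT were in ZNF430, ZNF317 and ZNF230. The junction over exons 2 to 4 of ZNF430, at its 3′ splice site, was at 0% in all 12 DMSO samples of both genotypes. It reached 27.6% to 60% in WT E7107 (median 46.5%, adjusted p = 1.92e-08) and 0% to 6.67% in Y36C E7107. The junction over exon 3 of ZNF230 (chr19:44512942-44513068, 127 bases, plus strand) reached 20% to 66.7% in WT E7107 (median 29.3%, adjusted p = 4.82e-07) and was at 0% in all 18 other samples. Exon 2 of ZNF317 was left out at 6.82% to 19.4% in WT E7107 (median 8.41%, adjusted p = 2.16e-07), from 0% in every WT DMSO sample. At each of these junctions the WT DMSO group gave no spread, which also lowers the p-values.

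**Figure D5:**
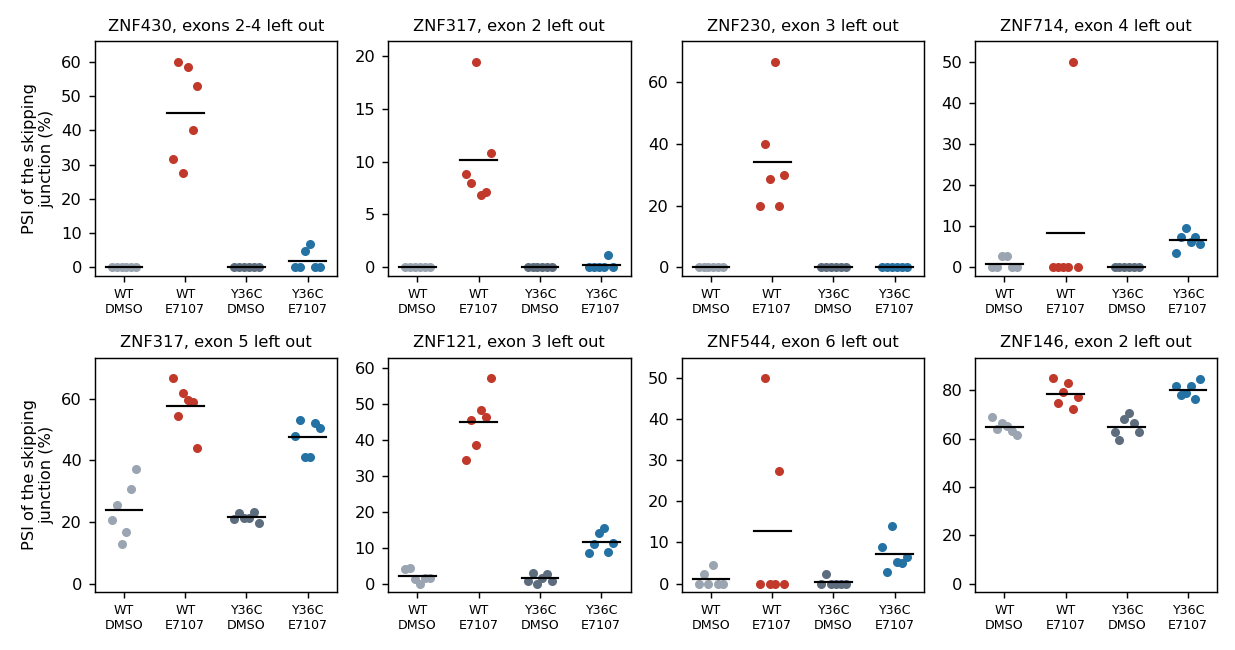
Usage (PSI, %) of 8 skipping junctions in ZNF genes, with 1 point per sample and a line at the mean of 6 samples in each of the 4 groups; the vertical scales differ between panels. ZNF430, ZNF230 and ZNF317 exon 2 passed the test in WT alone, ZNF714 and ZNF544 in Y36C alone, where 1 and 2 high samples set the WT E7107 means of 8.33% and 12.9%, and ZNF317 exon 5, ZNF121 and ZNF146 in both.

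Exons of 127 bases, in KRAB zinc finger genes commonly the exon of the KRAB A box, made up 29.4% of the 667 internal exons of the main transcripts. This length is not a multiple of 3, so leaving the exon out shifts the reading frame. The count that follows was made after ZNF430 and ZNF230 had been seen, and includes them. Among skipping junction rows over such an exon, alone or with others, 44 of 172 rose in WT and 1 fell, and 3 of 117 rose in Y36C, beside the 7.89% and 9.6% of all skipping junctions that rose. Among those over other internal exons only, 34 of 174 rose and 8 fell in WT, and 26 of 168 rose in Y36C. The difference between these shares was not tested. In ZNF136, exon 2 is of this length, and at the 3′ splice site that follows it the skipping junction went from 0% to 25% (median 0%) to 75% to 100% (median 86.6%) in WT (adjusted p = 4e-05). In Y36C it went from 0% to 14.3% (median 4.55%) to 16.7% to 36.4% (median 24.3%, adjusted p = 0.0389). ZNF136 was chosen after its values had been seen.

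The co-repressor genes through which KRAB zinc finger proteins act were counted as a list of 18, taken up whatever their values. In WT, 339 of 676 boundaries rose (50.1%) and 8 fell, beside 43.5% and 3.64% of all boundaries. The median change was 3.01 points, beside 4.82 over all boundaries. In Y36C 68 of 647 rose (10.5%) and 4 fell, beside 10.1% and 0.348% of all. The median there was 0.38 points, beside 0.57 over all boundaries. For TRIM28, the partner of the KRAB domain, 32 of 33 boundaries rose in WT and 13 of 33 in Y36C. Its mean retention was 4.17% ± 0.14 and 16.1% ± 0.72 (SD, n = 6) in WT, and 4.08% ± 0.07 and 4.83% ± 0.09 in Y36C. For SETDB1, the histone methyltransferase, 11 of 24 boundaries rose in WT, where the mean went from 6.03% ± 0.55 to 26.1% ± 4.6, and 1 of 22 in Y36C. Genes of the list differed in WT. In UHRF1 31 of 33 boundaries rose, but in TASOR 2 of 44 and in CHD3 14 of 82. In HDAC1 5 of 27 rose and 5 fell, and its mean went from 5.50% ± 0.14 to 5.14% ± 0.28.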

How the data were processed

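RNA was sequenced from 24 samples, 6 in each of 4 groups taken from the labels. The authors aligned reads to hg19 with STAR, and from junction counts deposited the percent usage (PSI) of each junction or exon-intron boundary at a splice site; the aligner's version is not given in the sources used here. Each of the 24 tables held 1830076 rows, and 6433 rows of the mitochondrial genome or without strand were left out. At every site the values summed to 100 or to 0 within 0.5, and 0 was treated as missing. Genes came from the GENCODE annotation of GRCh37 and sequences from GRCh37, whose GT and AG framed 97.8% of 3459 distinct ZNF junctions.

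Rows at sites read in all 24 samples were tested with limma 3.58.1 in R 4.3.3 on ln((PSI + 1)/(101 − PSI)), two-sided, with Benjamini-Hochberg adjustment over all rows of the genome. Pairwise comparisons used the 12 samples concerned and the interaction all 24. Rows with 1 constant value in the samples compared could not be tested and were left out, which departs from the planned filter. No filter on the level of PSI was set. limma was tested on simulated data. Medians and counts over the ZNF genes are descriptions.

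The members, gene lists and tests were chosen with earlier results of these data known. Named boundaries were the last introns of 10 genes of known role and, at annotated sites with 1 row per gene, up to 6 with the highest and 3 with the lowest moderated t in each genotype, 3 and 3 between genotypes and 4 and 4 in the interaction; named skipping junctions were the 3 highest in WT and the 5 highest in Y36C. Classes by length, GC content and exon length, genes with 3 or more introns and the printed sequences were settled after values had been seen. The sequence of 1 further intron of this kind is not reported here.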

Additional observations from a re-analysis of the deposited data

Results flagged for a closer look

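Of 144 groups of 6 samples examined, 136 were of the named boundaries and junctions and 8 of mean retention and of the number of sites read. In 19, all of the former kind, 1 sample stood far from the other 5 by Dixon's criterion, which chance alone meets in about 1 of 20 groups. In 13 of these groups the other 5 samples were at 0%. Among boundaries in Y36C DMSO, the single samples were at 12.5% in ZNF304 intron 2 (5′ end), 25% in ZNF816, 5.00% in ZNF180, 1.82% in ZNF444 and 1.35% in ZNF544 intron 5. In WT DMSO they were at 1.22% in ZNF544 intron 5, 59.1% in ZNF414, 2.68% in ZNF121, 25% in ZNF333, 18.8% in ZNF430 and 1.37% in ZNF581. In Y36C E7107 they were at 3.23% in ZNF180 and 7.29% in ZNF544 intron 5. In WT E7107 the lowest ZNF561 sample was at 37.5%, with the next at 72.7%, and 1 sample of the ZNF544 3′ splice site at 58788548 was at 25%. Among skipping junctions, single samples were at 19.4% (WT E7107) and 1.18% (Y36C E7107) for ZNF317 exon 2, at 50% (WT E7107) for ZNF714, and at 2.22% (Y36C DMSO) for ZNF544.

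At 23 of the 34 named boundaries and junctions, the E7107 effect differed between genotypes by the interaction test (limma, adjusted p of 0.05 or less). The shares over the files were 38.7% of all boundaries and 13.5% of all skipping junctions. Most of the 34 were chosen for a high or low t in these comparisons, so nothing is read from this count. In points, the effect in Y36C minus that in WT was −36 for ZNF274, −59.1 for the 3′ end in ZNF304, −26.2 and −31.6 for the 5′ and 3′ ends in ZNF146, and −42.2 for the 5′ end in ZNF224. It was −34.7 for ZNF816, −53.3 for ZNF136, −44.9 for ZNF614, −73.0 for ZNF77, −17.2 for ZNF791 and −18.4 for ZNF180. For the genes that moved in Y36C it was −46.7 for ZNF121, −56.4 for ZNF561, −57.1 for ZNF317 and −29.4 for ZNF430. It was −14 for ZNF581, −30.9 for ZNF460 and −31.5 for ZNF805, and 43.1 for ZNF738. For skipping junctions it was −43.2 in ZNF430, −9.98 for ZNF317 exon 2, −34.2 in ZNF230 and −32.9 in ZNF121.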

How the results depend on the processing

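The counts of boundaries higher in WT with E7107 (246 to 301) and lower in Y36C than WT under E7107 (245 to 307) stayed within 1.5 times the reported ones under every alternative run. In 154 settings of a count or mean the value stayed within its limit, and in 34 it moved, as follows. Boundaries lower in WT numbered 1 with PSI as the response and 1 with the replicate block. Boundaries higher in Y36C numbered 5 with an offset of 0.1 points, 17 with a mean PSI of 5 to 95, 30 with reads required in 12 samples, and 3 with a change of at least 10 points. Boundaries lower in Y36C numbered 3 with a mean PSI of 5 to 95 and 2 with reads in 12 samples. Under E7107, boundaries higher in Y36C than WT numbered 1 with PSI as the response, 1 with PSI above 0 in all samples of a group and 1 at annotated sites alone, where the interaction also gave 1. Spliced rows higher in WT numbered 58 with PSI above 0, 53 with a mean PSI of 5 to 95 and 59 with a change of 10 points. Spliced rows higher in Y36C numbered 26 with the replicate block and 25 with a change of 10 points, and those lower numbered 20 with the offset of 0.1, 66 with reads in 12 samples and 23 with the block. Spliced rows with a lower interaction numbered 30 with a mean PSI of 5 to 95 and 30 with a change of 10 points. Mean retention with DMSO and with E7107 was 0% and 33.8% in WT and 0% and 0% in Y36C as a median over boundaries. It was 7.72% and 42.7%, and 7.22% and 8.76%, at a mean PSI of 5 to 95, and 5.81% and 39.5%, and 5.76% and 6.69%, with each gene counted once. Of the tests of single named boundaries and junctions under the alternatives, 957 kept their direction and call, 14 lost the call, 5 gained it and 0 reversed. The cause was not tested.

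The labels number the samples 1 to 6 in each group. Same-numbered samples did not deviate together: 0 of 36 pairs correlated above 0.1, and 6 of 24 samples correlated best with their own number, so the numbers were not taken as pairs. Since the files give no counts, the read depth behind a PSI is unknown, and boundaries without reads in some WT E7107 samples could not be judged.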

Other observations

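The last 40 bases of introns were searched for CTNAC, a minimal branch point pattern, on the strand of the gene, whatever the retention. It was found in 13.8% of the 915 introns of the main transcripts of the ZNF genes and in 29.5% of 14031 annotated acceptors of all protein-coding genes of chromosome 19, the ZNF genes included. The median number of pyrimidines in the last 20 bases was 13 and 14. These values describe the letters of GRCh37 in that window, were chosen after retention values had been seen, and were not tested.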
